A study of Mus musculus with 6 samples.

Results

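Fkbp5, Klf9, Tsc22d3, Zbtb16, Sgk1, Ddit4 and Errfi1, which glucocorticoids are known to induce in many cell types, were followed in splenic monocytes together with Nr3c1, the glucocorticoid receptor itself, and Hsd11b1, the enzyme that regenerates active hormone. These 9 genes were taken by name out of 46072 gene identifiers, and all 9 were among the 16138 identifiers with enough counts to be tested. The set was chosen on measured values, because Fkbp5 and Klf9 were known to differ between the groups. The differences of the 9 genes are therefore given as a description, with no p-value for any of them, and their count of calls is printed only beside that of all genes.

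The Con group comprised 3 female C57BL/6 mice gavaged with water and the Van group 3 female C57BL/6 mice gavaged with vancomycin, an antibiotic against Gram-positive bacteria that is poorly absorbed from the gut, at a total of 2 mg per day. Gavage lasted 6 days in both groups and was followed by rest, for 6 to 8 days per the labels and 8 days for the RNA samples per the paper. Per the study's methods, mice were bought at 8 to 10 weeks of age, and monocytes were isolated from the spleen by magnetic negative selection and not stimulated in culture before RNA was taken. Whether spleens were combined before the isolation of RNA was not stated, and with 1 library per sample p-values measure the spread between these samples.

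Glucocorticoids (corticosterone in the mouse) are steroid hormones of the adrenal gland, released with a daily rhythm and in response to stress. They bind the glucocorticoid receptor, which is held ready in the cytoplasm by HSP90 and its cochaperones. The bound receptor moves into the nucleus, where it binds DNA at pairs of short half-sites and raises the transcription of its targets, and it also restrains inflammatory genes in monocytes and macrophages. Several of the targets feed back on this pathway. FKBP51, the product of Fkbp5, lowers the receptor's affinity for hormone, and Klf9 encodes a transcriptional repressor.

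Promoters of the genes that differed most are shown because the receptor's half-site, AGAACA or its reverse complement TGTTCT, can be read in them directly. Of the 9 genes, 7 had at least 1 window in RefSeq's promoter sequences (GRCm38.p6, 250 bases before to 50 after a transcript start). Zbtb16 and Nr3c1 had none. The windows below are written 5′ to 3′ on the strand of the gene, with half-sites in capitals, and Sgk1 was added after its sequence was seen. Where a gene had several windows, the one with the most half-sites is shown.
Fkbp5: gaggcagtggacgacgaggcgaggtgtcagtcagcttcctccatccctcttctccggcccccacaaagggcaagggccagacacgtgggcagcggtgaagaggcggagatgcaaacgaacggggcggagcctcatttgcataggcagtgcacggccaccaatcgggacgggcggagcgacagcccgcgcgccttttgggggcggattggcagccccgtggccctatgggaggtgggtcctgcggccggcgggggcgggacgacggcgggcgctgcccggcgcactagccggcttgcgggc
Klf9: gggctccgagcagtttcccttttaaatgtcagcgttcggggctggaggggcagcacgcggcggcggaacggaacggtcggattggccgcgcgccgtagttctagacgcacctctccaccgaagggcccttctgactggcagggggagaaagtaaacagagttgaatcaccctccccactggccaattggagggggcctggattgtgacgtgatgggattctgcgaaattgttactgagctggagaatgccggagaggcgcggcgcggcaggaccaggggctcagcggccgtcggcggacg
Ddit4: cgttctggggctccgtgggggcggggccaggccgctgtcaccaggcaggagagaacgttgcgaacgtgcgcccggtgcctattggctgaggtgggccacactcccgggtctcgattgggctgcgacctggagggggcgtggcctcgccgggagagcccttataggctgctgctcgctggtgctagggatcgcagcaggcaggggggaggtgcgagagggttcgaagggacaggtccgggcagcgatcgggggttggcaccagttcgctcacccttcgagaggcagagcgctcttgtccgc
Tsc22d3: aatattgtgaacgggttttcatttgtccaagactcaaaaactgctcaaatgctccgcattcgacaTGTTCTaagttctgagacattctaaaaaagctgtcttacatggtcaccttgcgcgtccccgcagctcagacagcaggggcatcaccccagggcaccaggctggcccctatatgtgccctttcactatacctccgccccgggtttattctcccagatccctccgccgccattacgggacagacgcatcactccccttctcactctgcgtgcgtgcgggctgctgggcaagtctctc
Sgk1: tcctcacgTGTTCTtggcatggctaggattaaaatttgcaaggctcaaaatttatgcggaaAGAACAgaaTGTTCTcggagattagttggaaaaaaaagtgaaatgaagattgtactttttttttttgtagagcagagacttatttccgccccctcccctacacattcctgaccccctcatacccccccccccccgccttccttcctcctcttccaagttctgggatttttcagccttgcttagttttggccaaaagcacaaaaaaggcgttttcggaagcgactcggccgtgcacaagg

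No half-site stood in the windows of Fkbp5 (chr17:28486100-28486399, minus strand), Klf9 (chr19:23140976-23141275, plus strand) and Ddit4 (chr10:59951721-59952020, minus strand). The Tsc22d3 window (chrX:140600473-140600772, minus strand) held 1, beginning 185 bases before the start, and the other windows among its 3 held none. The Sgk1 window (chr10:21993640-21993939, plus strand) held 3, beginning 242, 189 and 180 bases before the start, and the last 2 of these form the palindrome AGAACA, any 3 bases, TGTTCT. Of the 6 Sgk1 windows, 3 held a half-site. Among all 32851 promoter windows of this length, 19.0% held a half-site on either strand, 0.310% held at least 3, and 3 windows held the palindrome. Of 15 windows of the 7 genes, 4 held a half-site. A match of letters is a description of the sequence, and receptor binding was not measured. Only these windows and these exact letters were searched. A window without a match therefore does not show that the gene lacks receptor sites.

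Libraries held between 43.4M and 61.8M estimated counts. Values below are CPM (counts relative to the TMM-adjusted library total) for comparisons of a gene between mice, and FPKM, which accounts for transcript length, for comparisons between genes. In both groups the summed CPM of 8 monocyte markers, between 15823 and 18892, exceeded the sums for red pulp macrophages (2699 to 3978) and erythroid cells (81.2 to 622), and those of T cells (31.7 to 53.7), B cells (42.7 to 45.7 in Con, 35.2 to 37.5 in Van), NK cells (3.44 to 6.96), plasma cells (57.5 to 109.5), neutrophils (35.1 to 91.4), dendritic cells (89.0 to 121), platelets (12.9 to 30.6) and mast cells and basophils (0 to 0.717). Non-classical monocyte markers summed to between 7291 and 10003 CPM. In bulk RNA, fewer cells of a type and less RNA per cell cannot be told apart.

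Fkbp5 was the member with the largest difference. Its level was 16.2, 24.0 and 16.0 CPM in the 3 Con mice and 107, 110.2 and 185 CPM in the 3 Van mice. The groups stood far apart, and the lowest Van value was 4.45 times the highest Con value. The log2 fold change, Van against Con, was 2.84 (SE 0.25), a 7.14-fold difference. This was the 8th largest log2 fold change of the 16138 genes tested. Leaving out Van replicate 3, the mouse with the highest level, gave 2.53, and leaving out Con replicate 2, the Con mouse with the highest level, gave 3.06. Per length, Fkbp5 had the lowest level of the 9 genes in Con, with 4.42 ± 1.05 FPKM (SD, n = 3), and the 4th highest in Van, with 31.9 ± 10.3 FPKM (SD, n = 3). Fkbp5 lies on the minus strand of chromosome 17 from 28399094 to 28517527 (GRCm38).

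Klf9, on chromosome 19 from 23141226 to 23168134, was also higher in every Van mouse. It measured 49.8, 53.1 and 55.9 CPM in Con and 96.6, 84.6 and 99.9 CPM in Van. The groups did not overlap, and within each group the mice lay close together. Van exceeded Con by a log2 fold change of 0.82 (SE 0.08), or 1.77-fold. It stayed between 0.78 and 0.89 when each mouse was left out in turn. The level per length was 13.6 ± 0.976 FPKM (SD, n = 3) in Con and 24.2 ± 1.76 FPKM (SD, n = 3) in Van.

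**Figure D1:**
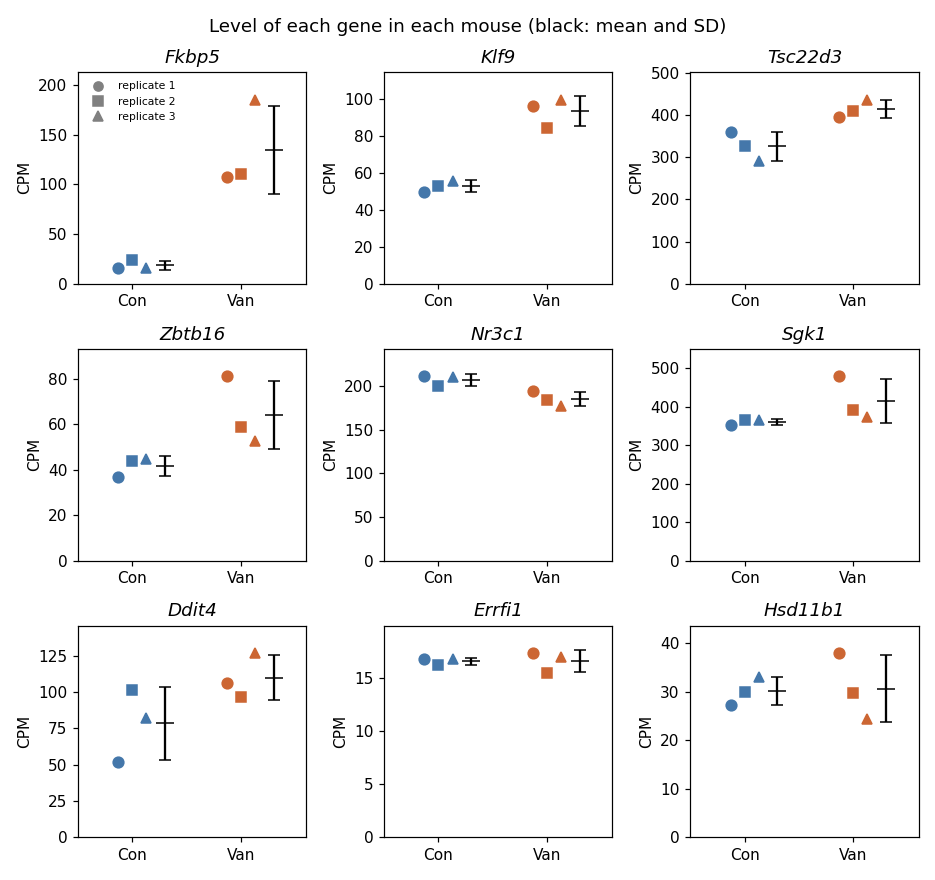
Level of each of the 9 genes in CPM in each mouse, 1 panel per gene with its own axis, with a marker for each of the 3 Con (blue) and 3 Van (orange) mice, shaped by replicate, and the group mean with SD in black. Fkbp5 stands between 107 and 185 CPM in Van and between 16.0 and 24.0 CPM in Con, while the points of Ddit4, Errfi1 and Hsd11b1 overlap.

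Other induced genes had smaller differences. Zbtb16 encodes PLZF, a zinc finger repressor of transcription that steroid hormones induce strongly in several tissues. Its level was 36.7, 43.6 and 44.5 CPM in Con and 81.1, 58.7 and 52.7 CPM in Van. The groups did not overlap, but Van replicate 1 stood well above the other Van mice. The log2 fold change was 0.63 (SE 0.15), and 0.42 without that mouse.

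Tsc22d3 encodes GILZ, a mediator of the anti-inflammatory action of glucocorticoids. Among the 9 genes it had the highest mean FPKM in both groups. It measured 360.5, 325 and 291 CPM in Con and 394, 408 and 436 CPM in Van. All 3 Van mice were above all 3 Con mice by a narrow margin, the lowest Van value being 1.09 times the highest Con value. This gave a log2 fold change of 0.34 (SE 0.08).

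Sgk1 encodes a kinase that regulates ion transport and cell survival. Its level was 352, 365 and 366 CPM in Con and 479, 391 and 373 CPM in Van. The groups did not overlap, yet Van replicate 3 was only 1.02 times the highest Con mouse. The log2 fold change was 0.20 (SE 0.09), and 0.08 without Van replicate 1.

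Ddit4 encodes REDD1, an inhibitor of mTORC1. It measured 51.9, 101.5 and 82.1 CPM in Con and 106, 96.4 and 127 CPM in Van. Here the groups overlapped, since Con replicate 2 exceeded Van replicate 2. The log2 fold change was 0.48 (SE 0.21), and it was 0.26 without Con replicate 1 and 0.71 without Con replicate 2. Errfi1 encodes an inhibitor of the EGF receptor. Its level was between 16.2 and 16.8 CPM in Con and between 15.4 and 17.3 CPM in Van, with a log2 fold change of 0.0014 (SE 0.08).

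Nr3c1, on chromosome 18, was the only member with a lower estimate in Van. It measured 211, 199 and 210.4 CPM in Con and 194, 184 and 178 CPM in Van. All 3 Van mice lay below all 3 Con mice. Its log2 fold change was -0.16 (SE 0.06), and between -0.19 and -0.13 when each mouse was left out. Hsd11b1 measured 27.2, 29.9 and 33.0 CPM in Con and 37.9, 29.7 and 24.3 CPM in Van. The groups overlapped, with the highest and the lowest mouse both in Van. Its log2 fold change was 0.03 (SE 0.15), and it ranged from -0.15 without Van replicate 1 to 0.17 without Van replicate 3.

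**Figure D2:**
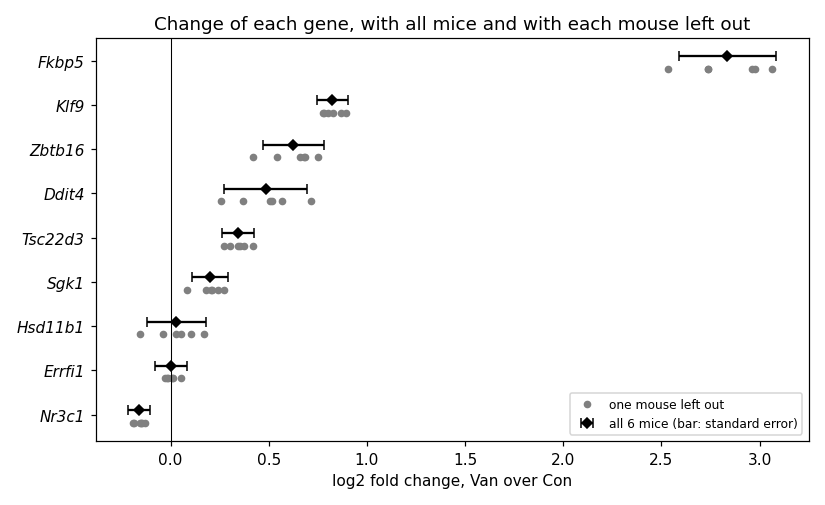
Log2 fold change of each gene, Van against Con, from edgeR with its standard error as bars, and the values obtained when each mouse is left out as small points. Fkbp5 at 2.84 and Klf9 at 0.82 keep their distance from 0 in every fit, while Errfi1 and Hsd11b1 lie on both sides of it.

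A gene was called where its p from the quasi-likelihood test of edgeR, adjusted over all genes after Benjamini and Hochberg, did not exceed 0.05. By this rule 2 of the 9 genes were called higher (Fkbp5 and Klf9) and 0 lower. Over all genes tested, 2.00% were called, 1.08% higher and 0.917% lower. The estimate was above 0 for 8 genes and below 0 for 1, with a median log2 fold change of 0.34 against -0.0014 over all genes. All 3 Van mice exceeded all 3 Con mice for 5 of the 9 genes, against 11.5% of all genes, and the groups did not overlap in either direction for 6, against 22.5%. Since the set was chosen with this contrast known, nothing is read from these counts.

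The order of levels differed between the groups mainly at Fkbp5. In Con, mean FPKM ran from Tsc22d3 (133 ± 15.1, SD, n = 3) and Sgk1 (129 ± 6.36) through Ddit4 (39.0 ± 12.5), Nr3c1 (28.4 ± 1.02), Hsd11b1 (15.9 ± 1.89), Klf9, Zbtb16 (6.82 ± 0.770) and Errfi1 (4.95 ± 0.181) to Fkbp5. The ranges of the neighbours Tsc22d3 and Sgk1, Ddit4 and Nr3c1, Hsd11b1 and Klf9, and Errfi1 and Fkbp5 overlapped. In Van the order was Tsc22d3 (174 ± 9.86), Sgk1 (146 ± 19.8), Ddit4 (54.8 ± 7.16), Fkbp5, Nr3c1 (25.9 ± 1.10), Klf9, Hsd11b1 (16.5 ± 3.80), Zbtb16 (10.6 ± 2.39) and Errfi1 (5.19 ± 0.145). Fkbp5 and Nr3c1 overlapped there, as did Nr3c1 and Klf9, Tsc22d3 and Sgk1, and Hsd11b1 and Zbtb16.

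The 9 genes did not rank the mice of a group in a single order. In Van, replicate 1 was highest for Zbtb16, Nr3c1, Sgk1, Errfi1 and Hsd11b1, and replicate 3 for Fkbp5, Klf9, Tsc22d3 and Ddit4. After each gene's group mean was subtracted from its log2 CPM, Zbtb16 and Hsd11b1 deviated together over the 6 mice (r = 0.96), as did Zbtb16 and Sgk1 (r = 0.96) and Sgk1 and Hsd11b1 (r = 0.92). Fkbp5 deviated with Ddit4 (r = 0.67) and, less, with Klf9 (r = 0.43), and opposite to Nr3c1 (r = -0.90) and Hsd11b1 (r = -0.64). Over the 36 pairs the median r was 0.14, with 9 pairs above 0.5 and 6 below -0.5. These values are descriptions over mice that share a library for all genes, and for many pairs they rest on Van replicates 1 and 3. Because the groups stood apart, no correlation over both groups is given between members, and 3 mice are too few for one within a group.

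**Figure D3:**
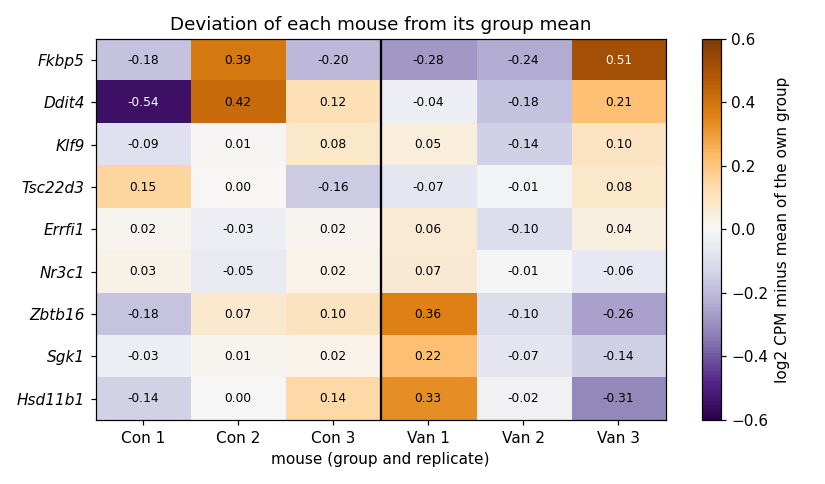
Deviation of log2 CPM from the mean of the mouse's own group, for each gene (rows) and mouse (columns), with the value written in each cell. In Van replicate 1, Zbtb16, Sgk1 and Hsd11b1 are high and Fkbp5 is low, and in Van replicate 3 the reverse is seen.

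Markers of non-classical monocytes, the patrolling subset, were summed in each mouse. The sums were 7797, 7291 and 8433 CPM in Con and 10003, 7846 and 7407 CPM in Van. Over the Van mice, Zbtb16, Sgk1, Hsd11b1 and Nr3c1 ran in the same order, highest in replicate 1 and lowest in replicate 3. Over the Con mice the sum was lowest in replicate 2, as was Nr3c1, while Zbtb16, Sgk1 and Hsd11b1 were lowest in replicate 1. Among the 8 monocyte markers, Ccr2 and Fcgr1 were called lower in Van and none higher, where 0.917% of all genes were called lower. Erythroid markers summed to 115, 169 and 81.2 CPM in Con and 399, 622 and 282 CPM in Van, and 5 of 8 were called higher, against 1.08% of all genes. The mouse with the highest Fkbp5 had the lowest erythroid sum in Van and the highest in Con. Neutrophil markers summed to 42.4, 63.9 and 38.6 CPM in Con and 35.1, 62.7 and 91.4 CPM in Van, the same order of mice as Fkbp5 within each group. Of the 5 neutrophil markers tested, however, 4 had lower estimates in Van and 1 higher, so the sums do not describe the list as a whole. Markers of red pulp macrophages summed to between 2699 and 3218 CPM in Con and 3112 and 3978 CPM in Van, with 6 of 6 estimates higher. Of these, 0 were called by edgeR (2.00% of all genes) and 3 had an unadjusted p under 0.05 (16.5% of all genes). Of 6 dendritic cell markers 5 had lower estimates and 1 higher. Their sums overlapped, with 89.0 to 121 CPM in Con and 89.2 to 104 CPM in Van. Only Clec9a was called lower (log2 fold change -1.12, SE 0.14, edgeR adjusted p = 0.0131), where 0.917% of all genes were. All 6 B cell markers had lower estimates, and their sums did not overlap between the groups. Of these markers 0 were called by edgeR (2.00% of all genes) and 1 had an unadjusted p under 0.05 (16.5% of all genes). Estimates were also lower for 4 of 4 platelet, 3 of 3 plasma cell, 5 of 6 T cell and 2 of 3 NK cell markers tested, with 0 called. The part of these cell types in the levels of the 9 genes was not tested.

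Other genes that glucocorticoids are known to induce were not called by edgeR. Of 32 listed genes, 30 were tested and edgeR called 0, against 2.00% of all genes. With so low a share, 0 of 30 says little about the list. An unadjusted p under 0.05 was found for 8, against 16.5% of all genes. DESeq2 called 3 of 29, against 7.36% of all genes with an adjusted p there, Klf15 and Glul higher and Il7r lower, and limma on log2(FPKM + 1) called 0. The estimate was higher in Van for 23 and lower for 7, with a median log2 fold change of 0.10 (-0.0014 over all genes). All Van mice exceeded all Con mice for 6 of the 30, against 11.5% of all genes. For 2, Il7r and Sesn1, all Van mice lay below all Con mice, as they did for 1775 of all 16138 genes tested. Pdk4, a kinase of mitochondrial pyruvate metabolism with the highest estimate of the list, rested on at most 19 counts in a library and is not given a fold. The 3 with the highest CPM, which is not a ranking per length, were Dusp1, a phosphatase of MAP kinases (log2 fold change -0.01, SE 0.20), Zfp36, which destabilizes cytokine mRNA (-0.24, SE 0.15), and Cxcr4, a chemokine receptor (-0.03, SE 0.14).

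Outside the rule for naming genes, some values were looked at after they were seen. Per1, a circadian clock gene, measured 472, 422 and 437 CPM in Con and 625, 501 and 492 CPM in Van (log2 fold change 0.28, SE 0.10, edgeR adjusted p = 0.191). Klf15 measured 1.97, 2.70 and 2.80 CPM in Con and 3.95, 5.08 and 3.76 CPM in Van (0.78, SE 0.21, edgeR adjusted p = 0.103). For both genes the groups did not overlap. Glul, which encodes glutamine synthetase, gave 0.44 (SE 0.13, edgeR adjusted p = 0.124), and its groups overlapped. Il7r, the interleukin-7 receptor, gave -0.53 (SE 0.15, edgeR adjusted p = 0.126), with no overlap and lower values in Van.

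Inflammatory genes that glucocorticoids are known to restrain were likewise not called by edgeR. Of 18 listed, 15 were tested and 0 were called by edgeR, against 2.00% of all genes, so that this count says little. An unadjusted p under 0.05 was found for 2 (16.5% of all genes), and DESeq2 called 1 of 14, Il1a (7.36% of all genes). The estimate was higher for 4 and lower for 11, with a median log2 fold change of -0.19, which was -0.02 without Con replicate 1. The 3 genes with the highest CPM were Il1b (log2 fold change -0.19, SE 0.13), Icam1, an adhesion molecule (-0.06, SE 0.10), and the chemokine Cxcl2 (-0.11, SE 0.31). Per length the mean of the chemokine Ccl5 stood above those of Icam1 and Cxcl2, with 110.4 ± 12.4 FPKM (SD, n = 3) in Con and 81.8 ± 20.7 FPKM (SD, n = 3) in Van. In both groups its range overlapped that of Cxcl2. The Con and Van values of Ccl5 also overlapped (log2 fold change -0.44, SE 0.17). Il1a, which encodes interleukin-1α, lay at the threshold and was singled out after it was seen. It measured 8.43, 10.3 and 9.85 CPM in Con and 6.83, 5.86 and 5.36 CPM in Van (log2 fold change -0.66, SE 0.14, edgeR adjusted p = 0.0508).

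**Figure D4:**
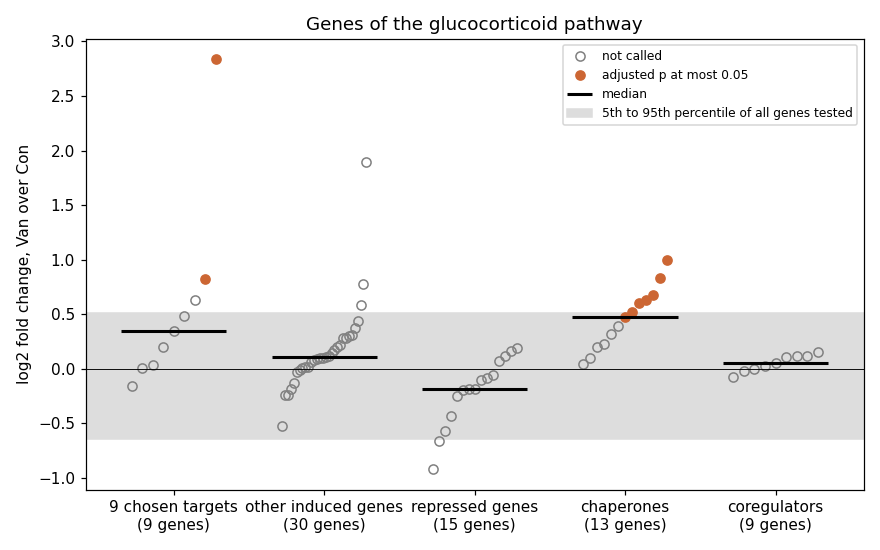
Log2 fold change, Van against Con, of every tested gene in the 9-gene set and in the lists of other induced genes, repressed genes, receptor chaperones and coregulators, with filled points for genes called by edgeR, a line at each median and a grey band from the 5th to the 95th percentile of all genes tested. The medians are 0.34 for the 9 genes, 0.10 for the induced and -0.19 for the repressed list, 0.48 for the chaperones and 0.06 for the coregulators.

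The complex that holds the receptor was examined next. The list of its genes, like the other lists, was chosen with earlier results of these data known. Its counts and p-values are therefore descriptions. Of 22 genes for chaperones, cochaperones and coregulators, 7 were called higher, against 1.08% of all genes, and 0 lower, all 7 among the 13 chaperones and cochaperones. The median log2 fold change of those 13 was 0.48, all 13 estimates were above 0, and for 11 all Van mice exceeded all Con mice, against 11.5% of all genes. Stip1, or HOP, which hands clients from HSP70 to HSP90, measured 63.1, 55.7 and 55.5 CPM in Con and 113, 124 and 112 CPM in Van (log2 fold change 1.00, SE 0.07, edgeR adjusted p = 0.0016). Fkbp4 encodes FKBP52, the relative of FKBP51 that promotes receptor activity. It measured 45.4, 44.4 and 49.8 CPM in Con and 80.3, 86.7 and 81.2 CPM in Van (0.83, SE 0.07, edgeR adjusted p = 0.0024). Both genes were clear of overlap, with close agreement between mice.

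The other called genes were Dnaja1, an HSP40 cochaperone (log2 fold change 0.68, SE 0.05), Hsp90aa1 (0.63, SE 0.07) and Hsp90ab1 (0.52, SE 0.08), which encode cytosolic HSP90, Hspa8, a constitutive HSP70 (0.60, SE 0.05), and Ptges3, the cochaperone p23 (0.48, SE 0.08). Stip1, Fkbp4, Hspa8 and Dnaja1 were called in all 6 fits that left out a mouse. Hsp90aa1 was called in 4 of them, and Hsp90ab1 and Ptges3 in 1 each. Dnaja1, Hsp90aa1, Hspa8 and Ptges3 have near-identical copies elsewhere in the genome, and Dnaja1 and Hspa8 also share exon bases with other genes, so their counts may hold reads of those. None of the 9 members had such a copy or overlap. The 9 coregulators had log2 fold changes between -0.08 and 0.15 and a median of 0.06. Of these, 0 were called by edgeR (2.00% of all genes), 0 had an unadjusted p under 0.05 (16.5% of all genes) and 0 were called by DESeq2 (7.36% of all genes).

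**Figure D5:**
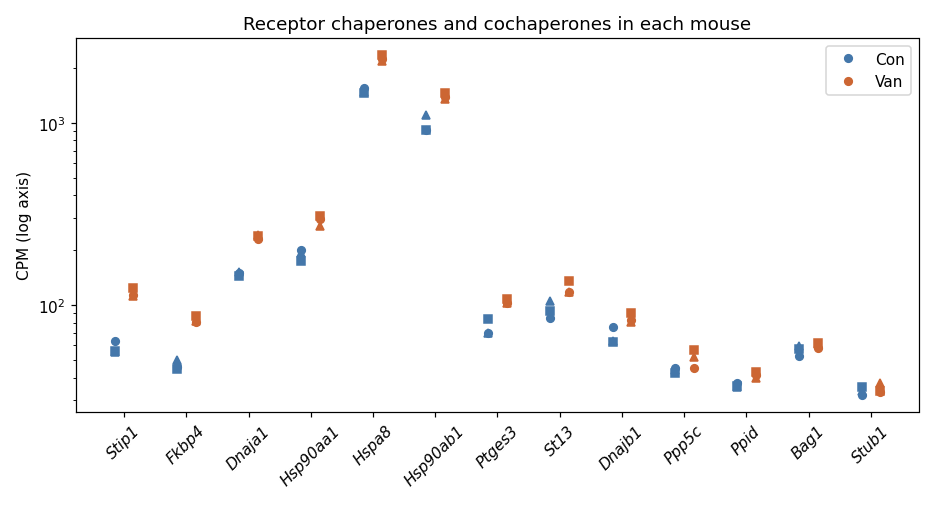
Level of the 13 chaperones and cochaperones of the receptor complex in CPM, on a log axis, with a marker for each of the 3 Con (blue) and 3 Van (orange) mice, shaped by replicate. The 3 Van mice lie above the 3 Con mice for 11 of the 13 genes, for Fkbp4 between 80.3 and 86.7 against 44.4 and 49.8 CPM.

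Genes that govern access of steroid to the receptor, together with related receptors, were not called by edgeR. Of 8 listed, 6 were tested and 0 were called by edgeR, against 2.00% of all genes, so that this count says little. An unadjusted p under 0.05 was found for 2 (16.5% of all genes), and DESeq2 called 1, Abcb1a (7.36% of all genes). H6pd, which supplies cofactor to the Hsd11b1 enzyme, had a log2 fold change of -0.03 (SE 0.08). Abcb1a and Abcb1b encode efflux pumps that carry glucocorticoids out of cells, and had log2 fold changes of 0.55 (SE 0.13) and 0.17 (SE 0.10).

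The genes whose pattern over the 6 mice was most like that of Fkbp5, by Pearson's r of log2 CPM among 12675 genes compared, were Hacd2 (r = 0.995), Gm7816 (r = 0.994), Gm15542 (r = 0.994), Foxo4 (r = 0.993) and Ccp110 (r = 0.993). Gm7816 and Gm15542 are processed pseudogenes nearly identical to Dnaja1, and both were called higher. Most like Klf9 were Slc1a4 (r = 0.994), Ttll12 (r = 0.992), Jdp2 (r = 0.990), Sh3tc1 (r = 0.990) and Vopp1 (r = 0.989). Of these 5, Jdp2, a repressor of AP-1 transcription, was called higher, with a log2 fold change of 1.11 (SE 0.10, edgeR adjusted p = 0.0044). The 10 genes were picked by a measure that follows in large part from the distance between the groups, and the libraries are shared by all genes.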

How the data were processed

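Spleen monocyte RNA was measured in 3 Con and 3 Van samples, with 1 library each from a stranded mRNA kit. Since the paper's statement on data points to a different deposit, these libraries were matched to its groups by treatment. DESeq2 called 962 genes in Van against Con here, and the paper's methods give the same number of differentially expressed genes. The limit on the adjusted p was the same, but the methods do not name the groups compared for that number. The authors aligned reads to GRCm38 with HISAT2 2.2.1 and obtained expected counts per gene with StringTie 2.1.3 and tximport, deposited without scaling to library size. FPKM values were made by the authors from the same assembly, scaled to length and library size. Strand use and multi-mapped reads are not given in the sources used here. Annotation of identifiers came from GENCODE M21, in which 98.0% were found.

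Rounded expected counts entered edgeR 4.0.16 under R 4.3.3 (TMM, filter at a minimum count of 10, quasi-likelihood test, group as the only term), with Benjamini-Hochberg adjustment over 16138 identifiers. Libraries held 43.4M to 61.8M estimated counts. Alternatives were DESeq2 1.42.0, limma 3.58.1 on log2(FPKM + 1) and log2(FPKM + 0.1), library size alone, other filters, counts scaled to fragments (by an assumed 75 bases per read and 200 per fragment, whereas the methods state longer reads), a replicate block, and each mouse left out. The edgeR and DESeq2 fits were tested on simulated data. A single gene with 3 mice against 3 cannot reach an exact two-sided permutation p below 0.1.

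The members and lists were chosen with earlier results of these data known. Named are all 9 members, every called gene of the pathway lists, the 3 genes of each list with the highest CPM, and the 5 genes most like Fkbp5 and Klf9 with a mean of at least 1 CPM. Near-identical copies are transcript matches of at least 200 bases at 95% identity.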

Additional observations from a re-analysis of the deposited data

How the results depend on the processing

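Among the 9 glucocorticoid genes, chosen with this contrast known, 2 were called by edgeR, against 2.00% of all genes. DESeq2 called 4 (Tsc22d3 and Zbtb16 in addition), against 7.36% of all genes with an adjusted p there. With limma on log2(FPKM + 0.1), 0 were called. Of the 9 genes 7 kept their direction in all 6 fits that left out a mouse, with Errfi1 and Hsd11b1 as the exceptions. In the induced list DESeq2 called 3 of 29 genes, again against 7.36%. In the repressed list 1 gene, Il1a, was called with library size alone, with DESeq2, without a filter on low counts, with at least 10 counts in every library and with counts scaled to fragments. In the receptor complex list 7 genes were called, 4 by limma on log2(FPKM + 1), 0 on log2(FPKM + 0.1), and between 4 and 6 when a mouse was left out. Over all genes 322 were called by edgeR, 962 by DESeq2, 21 and 4 by limma with a pseudocount of 1 and 0.1, and between 21 (without Van replicate 2) and 136 (without Con replicate 1) when a mouse was left out. The causes were not tested. Among the members and pathway lists, no gene called by edgeR changed direction under these alternatives.

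The labels state no pairing of mice by replicate number. The deviations of same-numbered Con and Van libraries correlated at 0.03, -0.002 and -0.07, which cannot exclude a batch shared by same-numbered mice. With the replicate number as a block, 110 genes were called in all, 2 of the 9 members and 6 of the receptor complex list.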

Other observations

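Relatives of Fkbp5 and Klf9 were looked at after the data were seen. Of the 14 FKBP genes counted, 11 were tested, and edgeR called 2 higher, Fkbp5 and Fkbp4, against 1.08% of all genes. The family's median log2 fold change was 0.16, and that of all genes -0.0014. Fkbp1a, which encodes the small binding protein of the drug FK506, had a log2 fold change of 0.16 (SE 0.07). Of 17 KLF genes 13 were tested, with 2 called higher, Klf9 and Klf13, against 1.08% of all genes, and a median of 0.30. Fkbp5 and Klf9 had been chosen with their differences known, so that these counts are descriptions. Klf13, a close relative of Klf9, had a log2 fold change of 0.43 (SE 0.05, edgeR adjusted p = 0.0131). Klf2 and Klf4, which regulate monocyte quiescence and differentiation, had log2 fold changes of 0.32 (SE 0.08) and 0.30 (SE 0.10) and were not called.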
